A study of Homo sapiens with 40 samples.

Results

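The day 5 membrane extract (ME) was compared with the day 5 cytoplasmic extract (CE) in total RNA of H1 cells, an established line of human embryonic stem cells. The comparison asks which RNAs each extract holds, and uses 4 of the 40 libraries of the series, 2 of ME and 2 of CE, out of 36 libraries of total RNA. Genes of the mitochondrial genome (names starting with MT-) were taken out, each library was rescaled to the same total, and genes were kept where 2 of the 4 libraries reached 1 TPM. TPM is reads per gene divided by gene length and scaled to a fixed library total, so it is a share. Of 57939 genes listed, 37 were MT- genes and 17245 passed the filter.

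All cells were wild type. Before differentiation they grew in mTeSR1 medium on matrigel. For mesoderm differentiation they were kept for 1 day in IMDM with serum, glutamine, ascorbic acid, monothioglycerol and BMP4, a ligand of the TGF-beta family, and for 4 more days in the same medium supplemented with bFGF (FGF2 protein). Day 0, day 3 and day 5 refer to this protocol, and days 0 and 3 enter below only where the ME and CE difference is compared between days. CE was the supernatant of the first buffer of a protein fractionation kit. ME was the supernatant of the second buffer, added to the pellet that CE left behind, and the soluble nuclear extract (SNE) was taken from what ME left. INPUT libraries were taken as unfractionated cells, which the labels do not spell out. Nothing in the labels states separate cultures for the replicates, and p-values then measure only how these libraries spread, which may be technical.

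A protein bound for the secretory pathway usually starts with a signal sequence, a short stretch of hydrophobic amino acids. As it leaves the ribosome, the signal recognition particle binds it, pauses translation and brings the ribosome with its mRNA to the translocon in the membrane of the endoplasmic reticulum. Proteins of the cytosol and the nucleus are made on free ribosomes, and so are most proteins that mitochondria import after translation. Tail-anchored proteins have their membrane segment at the far end and are inserted after translation is complete.

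The first 25 codons of 6 genes on which the results turn are printed here from GENCODE 29 transcripts (GRCh38), since they hold the start of each protein. Capitals mark codons with T at the second position, which encode phenylalanine, leucine, isoleucine, methionine and valine, and lower case marks all others. HSPA5, LRP1, AGRN and FN1 encode proteins that enter the secretory pathway. DYNC1H1 (a cytosolic motor) and H3C1 (a nuclear histone) encode proteins that do not.
HSPA5: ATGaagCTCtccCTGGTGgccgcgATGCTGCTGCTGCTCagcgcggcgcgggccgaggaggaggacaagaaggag
LRP1: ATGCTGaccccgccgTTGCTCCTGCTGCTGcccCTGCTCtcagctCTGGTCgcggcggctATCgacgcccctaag
AGRN: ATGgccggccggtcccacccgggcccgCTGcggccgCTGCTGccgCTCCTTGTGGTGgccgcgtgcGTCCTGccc
FN1: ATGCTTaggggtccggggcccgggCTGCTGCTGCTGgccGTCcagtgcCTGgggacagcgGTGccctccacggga
DYNC1H1: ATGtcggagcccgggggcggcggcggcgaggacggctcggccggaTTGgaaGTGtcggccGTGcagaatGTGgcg
H3C1: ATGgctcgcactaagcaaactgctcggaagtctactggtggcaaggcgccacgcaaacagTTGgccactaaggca
The 4 secretory starts held 9, 12, 10 and 9 such codons of 25 in the order printed, with longest runs of 5, 5, 4 and 4. The other two starts held 5 and 2, with no 2 of them side by side. Such counts are common: 2255 tested protein-coding genes held 9 or 10. Their median ME minus CE on the log2(TPM + 1) scale was 0.61. It was 0.56 for the 2577 genes with 0 to 4 such codons and 0.74 for the 421 with 13 to 25. The genes lie at chr9:125234853-125241330 (minus strand) for HSPA5, chr12:57128493-57213351 (plus strand) for LRP1, chr1:1020123-1056118 (plus strand) for AGRN and chr2:215360440-215436172 (minus strand) for FN1. DYNC1H1 lies at chr14:101964510-102056443 (plus strand) and H3C1 at chr6:26020490-26020900 (plus strand). Their coding lengths were 1965, 13635, 6138, 6531, 13941 and 411 nucleotides in the order printed.

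Among the genes tested, ME stood above CE for most. The median gene was 0.67 higher in ME on the log2(TPM + 1) scale, and 12219 genes (70.9% of those tested) had both ME libraries above both CE libraries, against 2746 (15.9%) with both below. Calls required a difference of at least 1 on the log2 scale and, in limma, an adjusted p (Benjamini-Hochberg) under 0.05. By this rule 5011 genes (29.1%) were higher in ME and 600 (3.48%) were lower. The filter could be met by the 2 ME libraries alone, and such genes can hardly come out lower in ME. Outside MT- genes, 15321 and 15478 genes reached 1 TPM in the CE libraries and 17387 and 17720 in the ME libraries. How many tested genes passed through ME alone was not counted. Since TPM is a share, abundant RNAs bear on the values of all others. Replication-dependent histone mRNAs took 13.4% and 12.8% of the summed TPM of the CE libraries against 4.91% and 4.72% of the ME libraries, and cytosolic ribosomal protein mRNAs took 9.14% and 8.66% against 4.63% and 4.54%. When libraries were set to a common median, which moved the median gene by -0.78, 684 genes (3.97%) were higher and 2417 (14%) lower. The 684 were all among the 5011, and the 600 were all among the 2417. Quantile normalisation gave 1239 and 1549, a pseudocount of 5 gave 2262 and 449, and a filter of 10 TPM 2968 and 497. Lists are given below under the main scaling and the common median.

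**Figure D1:**
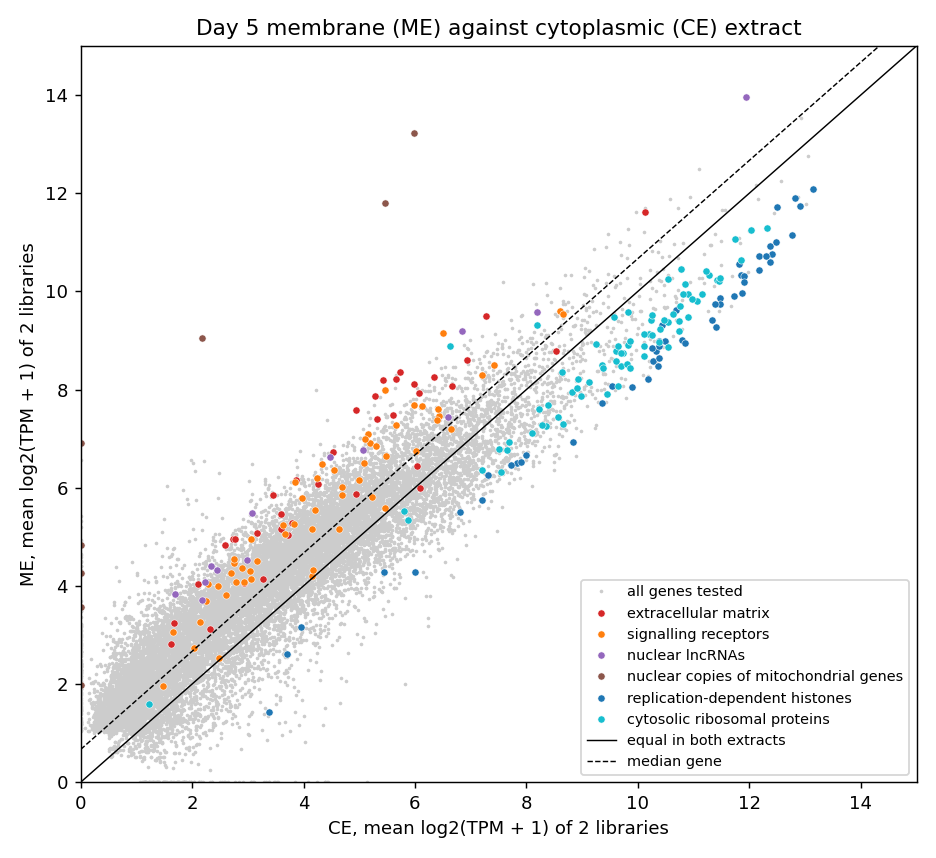
Mean log2(TPM + 1) of the 2 day 5 CE libraries (x) and the 2 day 5 ME libraries (y) for the 17245 genes tested, with 6 gene groups in colour. The solid line marks equal levels and the dashed line the median gene, 0.67 higher in ME. Most matrix and receptor mRNAs and nuclear lncRNAs, and all 8 nuclear copies of mitochondrial genes, lie above the dashed line, and all 52 histone mRNAs lie below the solid one.

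The ME libraries were shallower than the CE libraries. Outside MT- genes an estimated 3952142 and 4478955 reads stood behind CE and 2227705 and 1998334 behind ME. A read on a transcript of 1 kb was worth an estimated 0.808 and 0.727 TPM in CE, 1.07 and 1.18 TPM in ME and 1.79 and 1.82 TPM in SNE, and only 36.7% to 39.6% of the low values (up to 20 reads) came within 0.02 of whole numbers, which makes these depths estimates. Replicates correlated at r = 0.982 in CE and 0.949 in ME across genes. Library numbers in the titles jump between the day 5 ME replicates, and the labels name no batch. Whether this bears on their agreement was not tested. Under 10 estimated reads in at least 3 of the 4 libraries stood behind 1381 of the higher and 103 of the lower calls. Zeros need care, because EEF1G, EIF4A1 and TUBB, which cells of all kinds use, were listed at 0 in all 4 libraries.

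The labels of the extracts were checked with defining RNAs. MT- transcripts, which are made inside mitochondria, took 1.6% and 1.4% of the deposited total of the CE libraries and 46.6% and 48.1% of the ME libraries. They also took 23.1% and 21.4% of the SNE libraries, near the 20.3% and 21.7% of INPUT. SNE was thus not free of mitochondrial RNA, and ME minus SNE below does not compare membranes with a purely nuclear extract. GAPDH, a cytosolic glycolytic enzyme, stood at 7604 and 7378 TPM in the CE libraries and 4219.5 and 3536 TPM in the ME libraries, with a difference of -0.96 ± 0.08 (SE on the log2 scale, limma, adjusted p = 3.67e-08), short of the size a call needs. HSPA5, the main HSP70 chaperone inside the endoplasmic reticulum, was higher in ME. MALAT1, a lncRNA of nuclear speckles, stood at 4005 and 3810.4 TPM in CE, 14589 and 17321 TPM in ME and 35220.0 and 34480.0 TPM in SNE. The ME libraries lay between CE and SNE without overlap. Day 5 cells carried mesoderm RNA: HAND1, a transcription factor of lateral mesoderm, stood at 1250.3 and 1309.7 TPM in CE, and POU5F1, the pluripotency factor OCT4, at 77.9 and 74.3 TPM.

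Endoplasmic reticulum chaperones and folding enzymes lay close to the median gene. Of 30 listed, 29 were tested, 6 were higher in ME (HYOU1, UGGT1, SEL1L, CANX, HSPA5 and PDIA3) and none was lower. The list's median was 0.66 against 0.67 for all genes, and under the common median it was -0.12, with 1 higher and 4 lower. HSPA5 stood at 806 and 839.5 TPM in CE, 2071 and 2059 TPM in ME and 712 and 606 TPM in SNE. It was 1.33 ± 0.07 higher in ME (limma, adjusted p = 8.08e-10) and 0.55 above CE under the common median. The ME libraries lay above CE and above SNE without overlap. HYOU1, an endoplasmic reticulum chaperone of the HSP110 family, was 1.88 ± 0.29 higher, UGGT1, which senses misfolded glycoproteins, 1.70 ± 0.08 higher, and CANX, the membrane lectin calnexin, 1.38 ± 0.36 higher. CALR, the soluble partner of calnexin, stood at 1778 and 1810.2 TPM in the CE libraries and 2115 and 1958 TPM in the ME libraries, a difference of 0.18 without a call. Against SNE the list's median ME minus SNE was 0.97 against -0.44 for all genes, and 14 members were higher in ME than in SNE with 4 lower. Over all genes ME was higher than SNE for 1856 (10.8%) and lower for 5552 (32.2%).

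The machinery of translocation had calls in both directions under the main scaling and only lower ones under the common median. Of 29 tested members of the translocon, signal peptidase and oligosaccharyltransferase list, 2 were higher in ME (TRAM2 at 1.19 and TUSC3 at 1.07) and 2 were lower. OST4, a very small oligosaccharyltransferase subunit, stood at 792 and 751 TPM in the CE libraries and 233 and 278 TPM in the ME libraries, a difference of -1.6 ± 0.12 (adjusted p = 2.18e-08, limma), and SSR4, a translocon-associated protein, differed by -1.11 ± 0.13. For both genes the CE libraries lay above the ME libraries without overlap. With the chromatin and pellet libraries added to the fit (36 libraries), OST4 was no longer called (adjusted p = 0.165). The list's median was 0.05, and 0.011 without ME replicate 1 and 0.09 without ME replicate 2. With the common median it was -0.73, with none higher and 10 lower. SEC61A1, the channel of the translocon, differed by 0.69 without a call. None of the 6 protein subunits of the signal recognition particle was called, with a median of -0.08, and under the common median 2 were lower (median -0.86). SRP14 was the lowest at -0.90. The particle's RNA genes RN7SL1 and RN7SL2 were listed at 0. RN7SL3, a near-identical copy to which reads cannot be assigned with certainty, stood at 8388 and 7275 TPM in the CE libraries and 10837 and 12943 TPM in the ME libraries, a difference of 0.60 that is close to the median gene and was not called.

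Extracellular matrix mRNAs had the highest median of the lists of protein-coding genes. Of 38 listed, 36 were tested, and 30 were higher in ME with none lower. Their median was 1.87, and 21 of 36 were still called higher under the common median. Their summed TPM was 2596 and 2779.9 in the CE libraries, 8366 and 8272 in the ME libraries and 4004 and 4175 in INPUT. AGRN encodes agrin, a heparan sulfate proteoglycan of basement membranes, and its RNA stood at 38 and 46.5 TPM in CE, 299 and 286 TPM in ME and 157 and 143 TPM in SNE. It was 2.77 ± 0.08 higher in ME than in CE (limma, adjusted p = 1.64e-11). The ME libraries were the highest of the 3 extracts, with no overlap. LAMA5, a laminin chain, was 2.64 ± 0.06 higher, HSPG2 (perlecan) 2.63 ± 0.07 higher and COL18A1, a basement membrane collagen, 2.58 ± 0.09 higher. FN1, fibronectin and the most abundant of the list, stood at 1086 and 1136 TPM in CE, 3203 and 3099 TPM in ME and 1966 and 1830.0 TPM in SNE. Its difference from CE was 1.5 ± 0.07 (adjusted p = 5.00e-10), with no overlap, and 0.72 under the common median, where it was not called. SPARC, a small matrix protein, stood at 361 and 376 TPM in the CE libraries and 463 and 413 TPM in the ME libraries, a difference of 0.25 without a call.

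Secreted factors had calls in both directions under the main scaling and not under the common median. Of 38 tested secreted growth factors, inhibitors and carriers, 8 were higher in ME, 3 were lower and the median was 0.39. With the common median none was higher, 10 were lower and the median was -0.39. TGFB2, a TGF-beta ligand, was 1.72 ± 0.08 higher, IGFBP5, an IGF binding protein, 1.61 ± 0.09 higher, and FGF2 1.57 ± 0.08 higher. FGF2 has no classical signal sequence, and its RNA was at 147 and 158 TPM in SNE against 79.2 and 83.4 TPM in ME. APOA1, the main protein of high-density lipoprotein, stood at 13.9 and 10.5 TPM in the CE libraries and 2.75 and 3.11 TPM in the ME libraries. It differed by -1.74 ± 0.21 (adjusted p = 3.08e-06, limma), on an estimated 1.9 reads in each ME library against 23.9 and 20.1 in CE. FGF17, a fibroblast growth factor, stood at 42.9 and 41.1 TPM in the CE libraries and 17.3 and 17.8 TPM in the ME libraries, a difference of -1.21 ± 0.24, and DKK1, a WNT inhibitor, at 77.9 and 77.3 TPM in the CE libraries and 35.0 and 33.5 TPM in the ME libraries, a difference of -1.16 ± 0.41. The CE libraries were the higher ones for all 3 genes, although their proteins are secreted. The DKK1 call was lost when any of the 4 libraries was left out (adjusted p between 0.0544 and 0.0686), and with 36 libraries in the fit FGF17 reached 0.191 and DKK1 0.0829. CER1, a secreted inhibitor of NODAL and BMP, was the most abundant member at 1466 and 1399 TPM in the CE libraries and 815 and 810.4 TPM in the ME libraries, and its difference of -0.82 was not called.

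Receptors of the plasma membrane were higher in ME as a group. Of 57 tested, 45 were higher and none lower, the median was 1.33, and for 55 members both ME libraries lay above both CE libraries. Under the common median 11 were higher and none lower. LRP1 encodes a giant endocytic receptor of the LDL receptor family, and its RNA stood at 83.0 and 96.7 TPM in CE, 548 and 583 TPM in ME and 409 and 362 TPM in SNE. It was 2.64 ± 0.08 higher in ME than in CE (limma, adjusted p = 1.96e-11), and ME was again the highest extract without overlap. NOTCH3 was 2.52 ± 0.07 and NOTCH2 2.26 ± 0.07 higher. IGF1R, the IGF1 receptor, stood at 18.4 and 19.7 TPM in CE, 83.3 and 93.2 TPM in ME and 212 and 234 TPM in SNE, so its ME level lay above CE and below SNE. KDR, the VEGF receptor of early vascular mesoderm, was 1.16 ± 0.08 higher. Against SNE the group split, with 8 receptors higher in ME and 15 lower.

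Adhesion proteins and transporters had calls in 1 direction, higher in ME. Of 47 tested integrins, cadherins and related proteins, 26 were higher and none lower (median 1.17), and under the common median 4 were higher and 2 lower. FAT1, a giant atypical cadherin, was 2.38 ± 0.08 higher. PODXL, an anti-adhesive sialomucin of pluripotent and mesoderm cells, stood at 398 and 428 TPM in the CE libraries and 1298 and 1291 TPM in the ME libraries and was 1.65 ± 0.05 higher (adjusted p = 2.38e-11, limma), with wide gaps between the extracts. CD63, a tetraspanin of late endosomes, differed by -0.51 and CLDN6, a tight junction protein, by 0.22, neither called. Among 39 tested solute carriers, pumps and channels, 20 were higher and none lower (median 1.02), and under the common median 3 were higher and 1 lower. SLC7A11, the cystine transporter, was 2.29 ± 0.12 higher, and SLC38A2, a neutral amino acid transporter, 1.43 ± 0.07 higher. SLC2A3, the glucose transporter GLUT3 and the most abundant of the list, stood at 1939.8 and 1971 TPM in the CE libraries and 4139.9 and 3654 TPM in the ME libraries, and its difference of 0.99 fell just short of the size required.

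**Figure D2:**
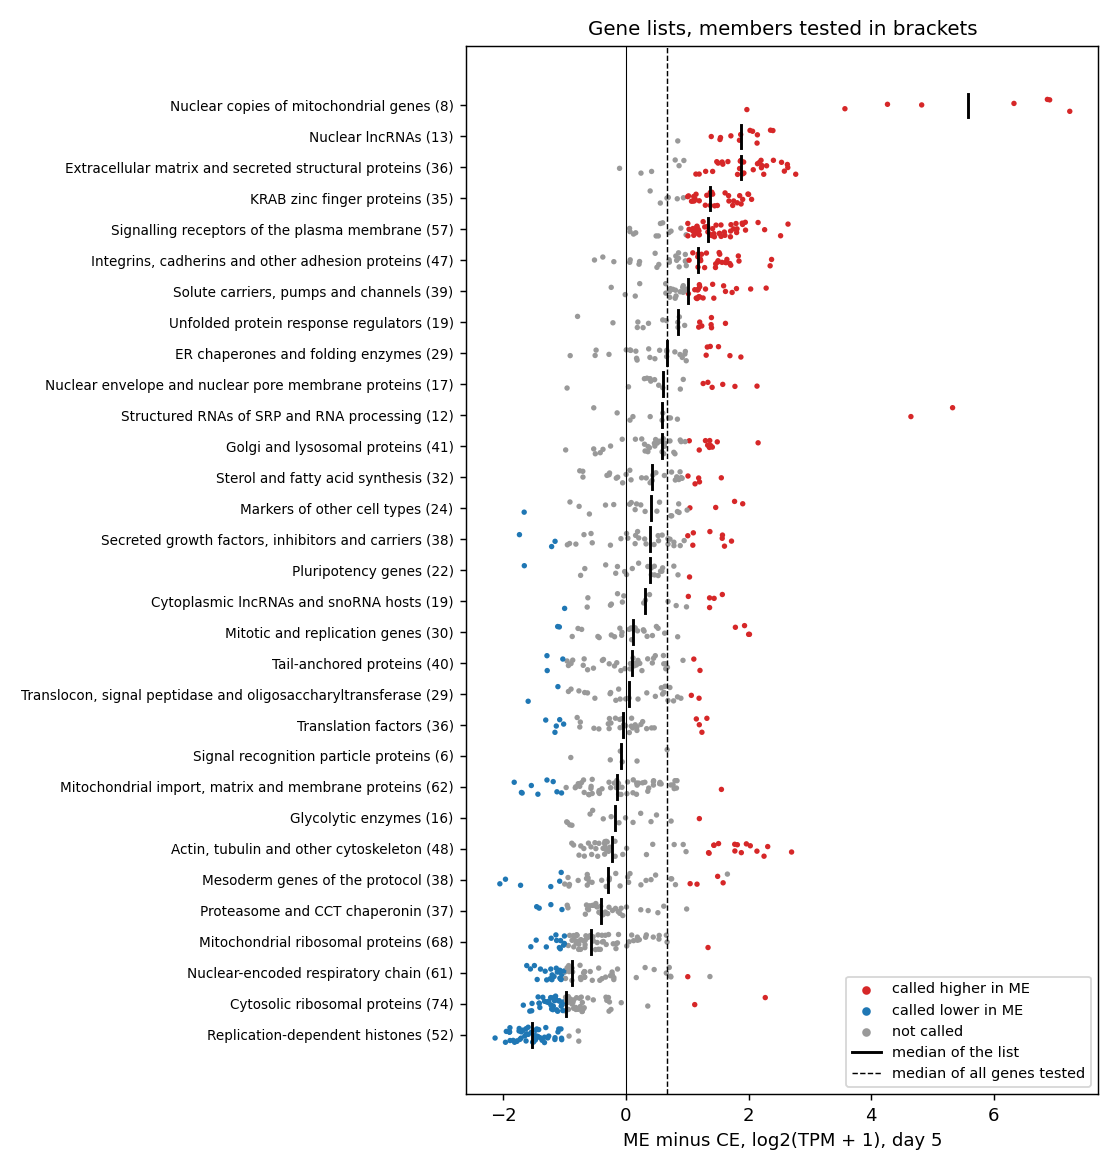
ME minus CE on the log2(TPM + 1) scale for every tested member of the 31 lists with at least 6 tested members, coloured by call (limma, adjusted p under 0.05 and a difference of at least 1). Black bars are list medians, the solid vertical line is 0 and the dashed one the median of all genes, 0.67. Matrix proteins (median 1.87), nuclear lncRNAs (1.87), KRAB zinc finger proteins (1.38) and receptors (1.33) lie to its right, and histones (-1.53) and cytosolic ribosomal proteins (-0.97) lie furthest left.

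mRNAs for proteins of internal membranes and of lipid synthesis had medians close to that of all genes (0.67) or below it. Over all genes 29.1% were higher and 3.48% lower. Of 41 tested Golgi and lysosomal proteins, 10 were higher and none lower (median 0.59), and under the common median 1 was higher and 6 lower (median -0.19). GOLGB1, the long Golgi tether giantin, was 2.16 ± 0.12 higher, TGOLN2 of the trans-Golgi network 1.36 ± 0.07 higher, and TMED2, a small cargo receptor, differed by -0.42 without a call. Of 32 tested sterol and fatty acid synthesis genes, 5 were higher and none lower (median 0.42), and under the common median none was higher and 6 were lower (median -0.36). The 5 were SREBF1, the lipid synthesis regulator that is itself a membrane protein, at 1.56, ACACA, FDFT1, ELOVL6 and DHCR7. SCD, a desaturase of the endoplasmic reticulum, stood at 734 and 777 TPM in the CE libraries and 1309 and 1224 TPM in the ME libraries, a difference of 0.74 without a call. Among 17 nuclear envelope and pore membrane proteins, 6 were higher and none lower (median 0.60), from SYNE2, a giant nesprin, at 2.14 to NEMP1 at 1.26. The common median left 1 higher and 1 lower (median -0.18).

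Tail-anchored proteins had few calls under the main scaling. Of 40 tested, 2 were higher and 3 lower, with a median of 0.09. With the common median none was higher and 14 were lower (median -0.69). MCL1, an anti-apoptotic BCL2 relative, stood at 906 and 921 TPM in the CE libraries and 1974 and 1966 TPM in the ME libraries and was 1.11 ± 0.04 higher. BCL2 itself, at 0.776 to 3.51 TPM in the CE and ME libraries, was 1.21 ± 0.11 higher in ME, and was at 13.85 and 16.95 TPM in SNE. Relative to SNE 2 members of the list were higher in ME and 10 lower. TOMM22 and TOMM7, subunits of the import pore of the mitochondrial outer membrane, differed by -1.29 ± 0.07 and -1.29 ± 0.09, and VAMP8, an endosomal SNARE, by -1.03 ± 0.10. Without ME replicate 2 or without CE replicate 1 VAMP8 came to -0.97 and -0.99 and lost its call, and with 36 libraries in the fit TOMM22 lost its call (adjusted p = 0.152). Regulators of the unfolded protein response, the stress pathway of the endoplasmic reticulum, had 7 of 19 members higher and none lower (median 0.85, and 0 higher and 1 lower under the common median). The higher members made up 36.8% of this list, against 29.1% of all genes. The stress sensors EIF2AK3 (PERK), ERN1 (IRE1) and ATF6 were all among the higher ones, at 1.62, 1.40 and 1.19. ME minus SNE was -1.39 for EIF2AK3 and -0.89 for ERN1, so both had higher levels in SNE than in ME. Relative to SNE 3 members of the list were higher in ME and 3 lower, with a median of 0.23. XBP1, whose mRNA is cut by IRE1 at the membrane, stood at 255 and 266 TPM in the CE libraries and 316 and 315 TPM in the ME libraries, a difference of 0.28 without a call.

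mRNAs of mitochondrial proteins encoded in the nucleus were, where called, mostly lower in ME. Of 61 tested respiratory chain genes, 23 were lower in ME and 1 higher, with a median of -0.88, and under the common median 49 were lower and none higher. Their summed TPM was 9594 and 9526 in CE, 5230.1 and 4996 in ME and 2927 and 2825 in SNE. ATP5F1D, a subunit of ATP synthase, stood at 278 and 278 TPM in CE, 91.7 and 88.1 TPM in ME and 45.5 and 36.1 TPM in SNE. It differed by -1.62 ± 0.13 (limma, adjusted p = 3.02e-08), and the 3 extracts did not overlap. UQCRC2, a core subunit of complex III, was the exception at 1.01 ± 0.30, and its call was lost without ME replicate 1 (0.91) and without CE replicate 2 (0.81), and with 36 libraries in the fit (adjusted p = 0.164). Among 68 tested mitochondrial ribosomal proteins, 12 were lower and 1, MRPS25 at 1.34, was higher (median -0.58). Among 62 import, matrix and membrane proteins, 9 were lower and 1 was higher (median -0.15). TIMM8B, a chaperone of the intermembrane space, differed by -1.82 ± 0.14. SLC25A5, an ADP/ATP carrier with several membrane spans that is imported after translation, stood at 1599 and 1572 TPM in CE, 541 and 544 TPM in ME and 179 and 125 TPM in SNE, a difference of -1.54 ± 0.11, with the extracts in falling order and no overlap. Under the common median 48 mitochondrial ribosomal proteins and 29 of the import list were lower and none was higher. MRPS25 was at 129.8 and 138 TPM in SNE against 59.5 and 69.3 TPM in ME.

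Nuclear copies of mitochondrial genes were higher in ME where tested. These are pseudogenes in the nuclear genome that are near-identical to MT- genes, so the authors' counting could assign mitochondrial reads to them. Of 22 listed, 8 were tested and 8 were higher (median 5.58), 7 of them also under the common median. The 22 summed to 117 and 102 TPM in the CE libraries and 11717 and 16527 TPM in the ME libraries. Copies could thus pass the filter through ME alone, so the count of 8 is not independent of the filter. MTATP6P1 stood at 67.0 and 57.9 TPM in CE, 7708 and 11915 TPM in ME and 2261 and 2109 TPM in SNE, a difference from CE of 7.24 ± 0.19 (adjusted p = 1.07e-11, limma). The ME libraries were far above both other extracts, although they differed between themselves. Such copies kept 1.18% and 1.66% of the summed TPM of the ME libraries after the MT- genes were removed, against 0.0121% and 0.0115% of CE.

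Histone mRNAs were lower in ME. Of 52 tested replication-dependent histones, which package newly made DNA and whose mRNAs end in a stem-loop without a polyA tail, 49 were lower and none higher. For all 52 both ME libraries lay below both CE libraries, with a median of -1.53, and under the common median 51 were lower. H3C1 stood at 1198 and 1134 TPM in CE, 285 and 311 TPM in ME and 91.0 and 73.3 TPM in SNE, a difference of -1.97 ± 0.16 (adjusted p = 4.02e-08, limma). The extracts were ordered CE, ME, SNE with no overlap. H2AC4 differed by -2.14 ± 0.18 and H4C13 by -1.91 ± 0.18, and copies of histone genes share sequence, so single members are uncertain. With 36 libraries in the fit H3C1, H2AC4 and H4C13 were no longer called (adjusted p = 0.189, 0.399 and 0.466). H1-2, a linker histone and the most abundant member, stood at 9414 and 8792 TPM in the CE libraries and 4538 and 4192 TPM in the ME libraries and differed by -1.06 ± 0.08. Against SNE the same list turned the other way, with 44 members higher in ME and none lower (median 1.40).

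Cytosolic ribosomal protein mRNAs showed the same order. Of 74 tested, 33 were lower and 2 higher (median -0.97), and under the common median 70 were lower and 1 higher. RPL8, a protein of the large subunit, stood at 3792 and 3639 TPM in CE, 1575 and 1594 TPM in ME and 575 and 467 TPM in SNE, a difference of -1.23 ± 0.08 (adjusted p = 5.32e-09, limma), again without overlap. The 2 higher members, RPS25 at 2.27 and RPL7A at 1.12, have near-identical pseudogene copies and are uncertain. RPL7A was at 428 and 197 TPM in CE, and without CE replicate 2 its difference was 0.56 and not called. RPS25 lost its call with 36 libraries in the fit (adjusted p = 0.0912). Of 36 tested translation factors, 5 were lower and 4 higher, with a median of -0.05, and under the common median none was higher and 14 were lower (median -0.83). Without CE replicate 1 the median was -0.033. Under the main scaling those lower were EIF3I, EEF1B2, EEF1D, EIF6 and EIF3G, between -1.31 and -1.02, and those higher were EIF3K, EIF3A, EIF5B and the long scaffold EIF4G1 at 1.15. EEF1A1, the elongation factor that brings tRNA to the ribosome, stood at 8687 and 8268 TPM in the CE libraries and 7371 and 6534 TPM in the ME libraries, a difference of -0.29 without a call.

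Among other cytosolic proteins the proteasome and the CCT chaperonin had 4 of 37 members lower and none higher (median -0.40), of which PSMB4 differed by -1.23 ± 0.08 and lost its call with 36 libraries in the fit (adjusted p = 0.465). Under the common median 26 of the 37 were lower. Glycolytic genes had 1 higher and none lower of 16 (median -0.18), and the higher one was SLC2A1, the glucose transporter GLUT1 and the membrane protein of that list, at 1.20 ± 0.07. Under the common median 8 glycolytic genes were lower and none higher. The cytoskeleton list was wide. It had 15 of 48 higher and none lower with a median of -0.22, and -0.15 without ME replicate 2, and under the common median 8 were higher and 24 lower. DYNC1H1, the heavy chain of cytoplasmic dynein, stood at 76.1 and 89.1 TPM in CE, 373 and 421 TPM in ME and 339 and 309 TPM in SNE and was 2.25 ± 0.10 higher than in CE. MACF1 and DST, giant linkers of actin and microtubules, were 2.31 ± 0.10 and 2.70 ± 0.14 higher, while ACTB, cytoplasmic actin, stood at 1239 and 1196 TPM in the CE libraries and 1171 and 991 TPM in the ME libraries, a difference of -0.18 without a call. TUBA1B, an alpha tubulin, differed by -0.77 without a call. DYNC1H1, MACF1 and DST encode proteins without a signal sequence.

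**Figure D3:**
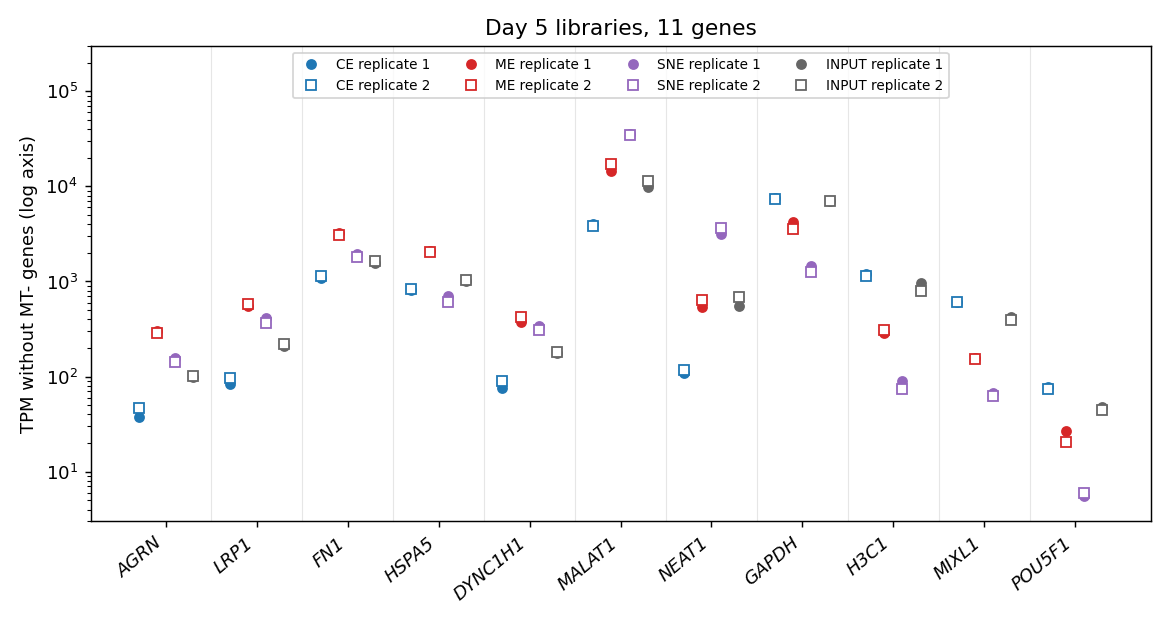
TPM without MT- genes (log axis) of 11 genes in the day 5 libraries of CE, ME, SNE and INPUT. Filled circles are replicate 1 and open squares replicate 2. AGRN, LRP1, FN1, HSPA5 and DYNC1H1 are highest in ME, MALAT1 and NEAT1 rise from CE through ME to SNE, and GAPDH, H3C1, MIXL1 and POU5F1 descend in that order.

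RNAs that stay in the nucleus were also higher in ME than in CE. Of 13 tested nuclear lncRNAs, 12 were higher and none lower (median 1.87), and 8 were still higher under the common median. Their summed TPM was 4587 and 4400.5 in CE, 16366 and 19299.6 in ME and 40403 and 40185 in SNE. NEAT1, the scaffold of nuclear paraspeckles, stood at 110.4 and 116 TPM in CE, 535 and 639 TPM in ME and 3196 and 3647 TPM in SNE, a difference between ME and CE of 2.36 ± 0.13 (limma, adjusted p = 1.48e-09). CE, ME and SNE were in rising order with no overlap. KCNQ1OT1, an imprinted chromatin-bound lncRNA, was 2.14 ± 0.14 higher in ME than in CE and -2.42 relative to SNE. RN7SK, a further nuclear marker, was listed at 0. KRAB zinc finger mRNAs, which encode repressors of transposable elements, had 29 of 35 higher and none lower (median 1.38), and 7 higher under the common median. ZNF91 was 2.00 ± 0.12 higher and ZNF90 1.38 ± 0.10 higher. Relative to SNE the list's median was -1.11, with 22 members lower in ME and none higher. Over gene types, 1216 of 2892 lncRNAs (42%) were higher in ME and 32 (1.11%) lower, against 3315 (26.1%) and 442 (3.48%) of 12700 protein-coding genes. These shares include genes that could pass the filter through the ME libraries alone.

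Set against SNE, nuclear lncRNAs and KRAB zinc finger mRNAs had negative medians, and most lists of secretory and of cytosolic proteins had positive ones. The median ME minus SNE was -1.25 for nuclear lncRNAs, -1.11 for KRAB zinc finger mRNAs and -0.44 for all genes, against 0.33 for matrix proteins, 0.63 for adhesion proteins, 0.07 for receptors and 0.97 for chaperones. Lists of proteins that are not secreted also lay above 0, with 1.40 for histones, 1.06 for cytosolic ribosomal proteins, 0.79 for the cytoskeleton, 0.70 for the respiratory chain and 0.61 for glycolytic genes. Nuclear envelope (-0.16) and tail-anchored proteins (-0.19) lay below it. ME minus INPUT had a median of 1.02 for matrix proteins, 0.69 for receptors and 0.57 for nuclear lncRNAs, against 0.19 for all genes. The ME libraries are shared by these comparisons, so their values are side by side and not independent. ME and INPUT differed in fewer genes, with 526 (3.05%) higher and 228 (1.32%) lower in ME. How far nuclear RNA in ME contributes to the differences of single genes was not tested.

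lncRNAs that act or are processed in the cytoplasm had no common direction. Of 19 tested, counting hosts of snoRNAs, 5 were higher and 1 lower (median 0.32), and under the common median none was higher and 5 were lower (median -0.46). ZFAS1, a snoRNA host, was 1.44 ± 0.08 higher and was at 508 and 512 TPM in SNE against 153 and 175 TPM in ME. NORAD, an abundant cytoplasmic lncRNA that binds Pumilio proteins, stood at 1649.7 and 1711 TPM in the CE libraries and 3379.6 and 3286 TPM in the ME libraries, a difference of 0.99 just short of a call. The lower one, SNHG16 at -1, was not called without ME replicate 2 (-0.85) or without CE replicate 1 (-0.98). Small RNAs were thinly covered. Of 25 listed structured RNAs 12 were tested and 2 were higher (VTRNA1-2 and RNU11), with a median of 0.59, and 0.34 without CE replicate 2. Both were also higher under the common median, where the list's median was -0.19. Of 23 listed snoRNAs and scaRNAs 5 were tested and 1 was higher, with a median of 0.55, and under the common median none was called (-0.23). The higher one was SNORD3A (U3), at 1559 and 1499.6 TPM in the CE libraries and 3318 and 4254 TPM in the ME libraries, a difference of 1.3 ± 0.13.

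Developmental genes had calls in both directions. Of 38 tested mesoderm genes, 6 were lower (MSGN1, MIXL1, MESP1, FOXF1, EOMES and CDX1) and 4 higher (MEIS2, MEIS1, KDR and TBX3), with a median of -0.30, and under the common median 21 were lower and none higher. MIXL1, a homeobox factor of the primitive streak, stood at 601 and 609 TPM in CE, 155 and 153 TPM in ME and 66.6 and 62.0 TPM in SNE, a difference of -1.97 ± 0.21 (limma, adjusted p = 8.44e-07), with the extracts in falling order and no overlap. MSGN1, a factor of presomitic mesoderm, stood at 84.8 and 99.5 TPM in the CE libraries and 30.0 and 15.1 TPM in the ME libraries and differed by -2.06 ± 0.30. MESP1, a factor of cardiac mesoderm, differed by -1.72 ± 0.37, and its call was lost with 36 libraries in the fit (adjusted p = 0.37) and with a pseudocount of 0.1 (adjusted p = 0.133). MEIS1 and MEIS2, homeobox cofactors, were 1.5 ± 0.11 and 1.59 ± 0.13 higher in ME, and MEIS2 stood at 3.8 and 3.56 TPM in CE, 11.7 and 14.6 TPM in ME and 82.8 and 93.9 TPM in SNE. TBX3 was 1.05 ± 0.14 higher, and 0.97 without CE replicate 1, where it was not called. HAND1 and APLNR, the apelin receptor, differed by -0.32 and -0.17 without a call. Of 22 tested pluripotency genes, 1 was higher (L1TD1 at 1.04, and 0.91 and not called without ME replicate 2) and 1 lower, with a median of 0.38, and under the common median none was higher and 4 were lower (median -0.40). The lower one, POU5F1, stood at 77.9 and 74.3 TPM in CE, 27.0 and 20.3 TPM in ME and 5.56 and 5.93 TPM in SNE, a difference of -1.66 ± 0.12, and shares sequence with its pseudogenes. Of 40 markers of other cell types 24 were tested, with summed TPM of 1240.3 and 1300.3 in CE and 1775 and 1740.0 in ME. Of these, 4 were higher (COL1A1, TIE1, CDH5 and GATA3) and 1, SOX17 of endoderm and endothelium, was lower at -1.66 ± 0.41 and lost its call with 36 libraries in the fit (adjusted p = 0.226) and with a pseudocount of 0.1 (0.214). Their median was 0.41, and under the common median 1 was higher and 5 lower (median -0.37). GATA3 was 1.04 higher and came to 0.99 without ME replicate 2 and 0.97 without CE replicate 1, where it was not called. Mitotic and replication genes had 4 of 30 higher and 2 lower (median 0.11, and 0.036 without ME replicate 1), and under the common median 4 were higher and 8 lower (median -0.67). MKI67 and CENPF, markers of dividing cells, were 2.02 ± 0.11 and 2.00 ± 0.12 higher, and BIRC5 (survivin) and GINS2, a replication factor, differed by -1.09 and -1.11.

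The difference between ME and CE varied with coding length. Over 12655 protein-coding genes with an annotated coding sequence, the median ME minus CE was -0.38 under 500 nucleotides, 0.15 from 500 to under 1000, 0.58 from there to under 2000, 0.85 from there to under 4000 and 1.28 from 4000 up. The share called higher went from 8.39% to 75.4% over these bins, and the share called lower from 21.9% to 0%. Against SNE the order was the opposite, with a median ME minus SNE of 0.32, -0.10, -0.49, -0.78 and -1.01 from the shortest bin to the longest. Spearman's rho of length with ME minus CE was 0.535 and Pearson's r with log2 length 0.555 across genes, which share libraries and are not independent replicates. A hydrophobic segment was then searched in the translated coding sequences as a window of 19 residues with a mean Kyte-Doolittle hydropathy of at least 1.6. Genes with a segment near the start of the protein had higher medians than genes with none in each of the 5 length bins: 0.09 against -0.47, 0.39 against 0.08, 0.71 against 0.51, 1.11 against 0.80 and 1.58 against 1.28. The window misses short signal sequences, for example those of FN1 and HSPA5 printed above. FN1 was classed as having no segment and HSPA5 as having 1 internal segment. In genes of 4000 nucleotides or more, 361 of 482 without any segment were still called higher. With a segment anywhere their median was 1.281, against 1.283 with none. At a threshold of 1.9 a segment near the start did not exceed a segment anywhere from 500 to under 1000 nucleotides (0.402 against 0.407). The same held from there to under 2000 (0.737 against 0.741).

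**Figure D4:**
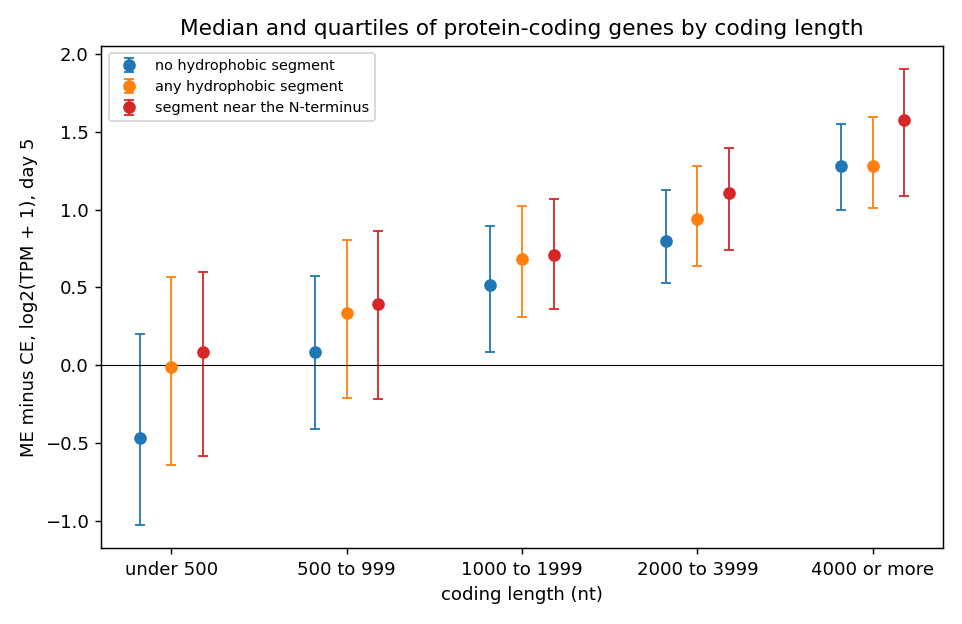
ME minus CE on the log2(TPM + 1) scale by coding length in nucleotides for 12655 protein-coding genes, as medians (points) with quartiles (bars), for genes with no hydrophobic segment, with any, and with a segment near the N-terminus. The medians rise from the left bin to the right one in all 3 groups, and the group with a segment near the N-terminus has the highest median in each bin.

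Each list was also set against genes of like length, taken as the running median of ME minus CE over the 150 genes on either side in coding length, a description chosen after values were seen. Of 36 matrix genes, 29 lay above genes of like length (median excess 0.64). So did 46 of 57 receptors (0.36), 41 of 47 adhesion genes (0.42), 31 of 39 transporters (0.30) and 15 of 19 regulators of the unfolded protein response (0.22). KRAB zinc finger genes, which encode no secretory proteins, were also above, 32 of 35 (0.62). Chaperones (16 of 29, 0.07), Golgi and lysosomal genes (24 of 41, 0.07) and small secreted factors (19 of 38, 0.06) were near genes of like length. Histones were below in 52 of 52 (median -1.09), and so were 67 of 74 cytosolic ribosomal proteins (-0.76), 35 of 37 proteasome and CCT genes (-0.82), 15 of 16 glycolytic genes (-0.76), 57 of 62 mitochondrial import genes (-0.71) and 49 of 61 respiratory chain genes (-0.62). Mesoderm genes (27 of 38, -0.71) and mitotic genes (26 of 30, -0.57) lay below as well. Lists of membrane and secretory pathway proteins were not all above. Translocon genes were below in 19 of 29 (-0.18), nuclear envelope genes in 9 of 17 (-0.12) and tail-anchored proteins in 23 of 40 (-0.06). Sterol and fatty acid synthesis genes, not all of which encode membrane proteins, were below in 21 of 32 (-0.22).

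The rule for leading genes, the 10 of largest difference in each direction at a mean of 10 TPM or more, picked mostly short RNAs. Among the higher were MTATP6P1, MTND1P23, MTCO1P12 and MTND2P28, named above as a kind, and RNU11, a small nuclear RNA, and several were listed at 0 in CE. Among the lower were pseudogenes of ribosomal proteins such as RPL39P40 and RPL35P5. Protein-coding genes at the ends of the range, picked after values were seen, were FOSB, an immediate early transcription factor, at 6.69 and 8.19 TPM in the CE libraries and 80.1 and 96.8 TPM in the ME libraries (3.41 ± 0.15), KIF1A, a long kinesin motor, at 19.2 and 21.8 TPM in the CE libraries and 159.7 and 174 TPM in the ME libraries (2.96 ± 0.07), and RGS4, a regulator of G protein signalling, at 14.6 and 12.4 TPM in the CE libraries and 0.754 and 3.12 TPM in the ME libraries (-2.43 ± 0.37). FOSB stood higher still in SNE, at 234 and 237 TPM. AHNAK, a giant scaffold, was 2.61 ± 0.11 higher.

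The difference between ME and CE changed with differentiation for a minority of genes. The change is the day 5 difference minus that of day 0 or day 3, tested in the same fit with different libraries on each day. From day 0 to day 5 it went up for 668 genes (3.87%) and down for 387 (2.24%), and from day 3 to day 5 up for 51 (0.296%) and down for 21 (0.122%). With a filter of 10 TPM the 387 became 111, the 51 became 16 and the 21 became 10. The 51 became 28 without ME replicate 2, 30 without CE replicate 1 and 27 without CE replicate 2, and the 21 became 48 without ME replicate 1 and 9 without either CE replicate. The median ME minus CE of the same genes went from 0.62 on day 0 to 0.66 on day 3, and to 0.67 on day 5. The matrix list had medians of 1.48, 2.16 and 1.87 on the 3 days with no member changed from day 0, and the receptors 1.17, 1.44 and 1.33, also with none changed. The cytoskeleton list had 13 of 48 members changed up and none down. TUBA1B stood at 4060.0 and 3937 TPM in CE and 1055 and 1113 TPM in ME on day 0, and at 4062 and 4139 TPM in the CE libraries and 2559 and 2269.7 TPM in the ME libraries on day 5, so that the ME libraries lay above those of day 0 while the CE libraries were close to theirs, a change of 1.12 (limma, adjusted p = 1.30e-06). MCL1 stood at 1076 and 1107 TPM in CE and 987 and 945 TPM in ME on day 0 and changed by 1.28 to day 5. EIF4G1 changed by 1.39 and NORAD by 1.12, and from day 3 to day 5 their changes were -0.28 and -0.08, neither called. PCDH1, a protocadherin, changed by 1.00.

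Respiratory chain genes had 5 of 61 changed down (COX5B, COX6C, COX7A2, NDUFA4 and NDUFB9) and none up, and the list's median went from -0.46 on day 0 to -0.76 and -0.88. Mesoderm genes had 6 of 38 changed down and 3 up, but several were hardly present before. MIXL1 stood at 4.98 and 4.94 TPM in CE and 3.54 and 2.56 TPM in ME on day 0, at 57.9 and 54.2 and 17.1 and 19.1 on day 3, and its change from day 0 was -1.40 (adjusted p = 0.00218, limma). Between days, a bulk extract cannot tell fewer cells of a type from less RNA per cell. MSGN1 was listed at 0 in all 4 day 0 libraries, so its change has no starting difference. The rule for the largest changes between days picked thinly covered RNAs. AC015912.3 and AL096828.3, both lncRNAs, changed by 4.66 and 4.60 from day 0, were listed at 0 in both day 0 ME libraries, and rested on 1 to 9 estimated reads in each day 5 library. Among protein-coding genes picked after values were seen, FOSB stood at 3.39 and 3.01 TPM in CE and 6.44 and 4.58 TPM in ME on day 0, and at 1.89 and 1.92 and 5.55 and 6.34 on day 3, which made its change 2.79 from day 0 and 2.15 from day 3. LTBP2, a matrix protein outside the matrix list that binds fibrillin, was under 1 TPM in all 4 day 0 libraries and at 3.88 and 4.39 TPM in the CE libraries and 27.1 and 28.4 TPM in the ME libraries on day 5.

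Genes without introns were grouped after values were seen. Of 257 protein-coding genes with a single exon in every annotated transcript, other than the listed histones, 66 (25.7%) changed up from day 0 to day 5 and 3 (1.17%) down. Of 12358 genes with introns, 393 (3.18%) changed up and 229 (1.85%) down. Median ME minus CE of genes without introns went from -0.50 on day 0 to 0.44 on day 3 and 0.33 on day 5, and that of genes with introns from 0.58 to 0.63 and 0.61. TSPYL1, a nucleosome assembly relative, stood at 596 and 624 TPM in CE and 249 and 232 TPM in ME on day 0, at 588 and 662 and 886 and 835 on day 3, and at 561 and 612 and 793 and 726 on day 5. ME thus lay below CE on day 0 and above it on days 3 and 5, without overlap, a change of 1.71 (adjusted p = 6.56e-08, limma). IER5, an immediate early gene, changed by 1.75, IRF2BPL, a transcriptional coregulator, by 1.86, and ZXDB, a zinc finger gene with a near-identical paralog, by 1.78. In SNE the median level of genes without introns also differed between days, with 3.69 and 3.74 on day 0 and 4.15 and 4.10 on day 5 on the log2(TPM + 1) scale. In CE it was 4.76 and 4.82 on day 0 and 4.89 and 4.95 on day 5.

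**Figure D5:**
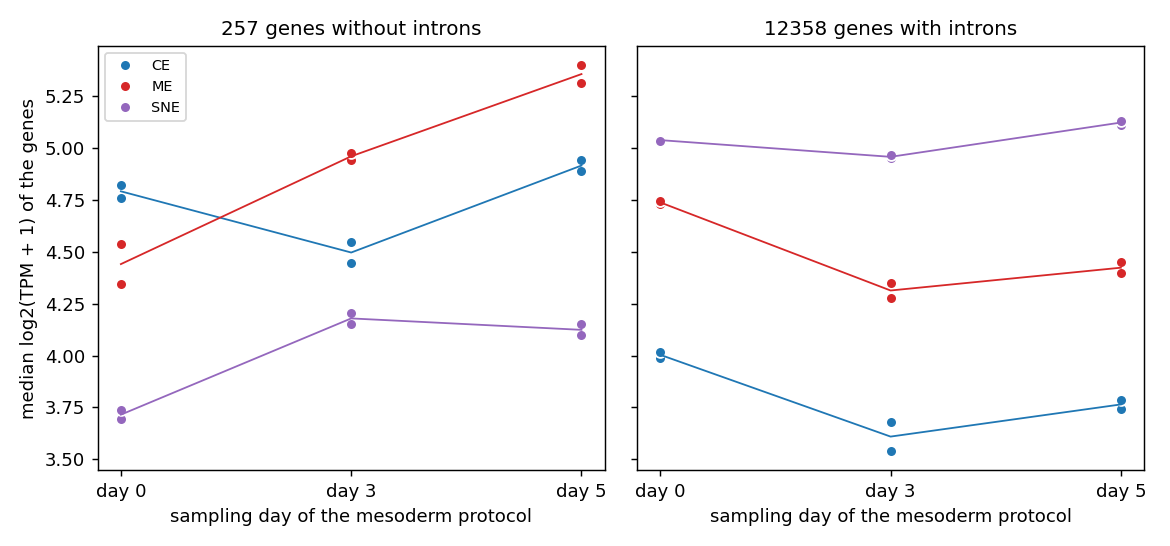
Median log2(TPM + 1) of 257 protein-coding genes without introns (left) and 12358 with introns (right) in each library of CE, ME and SNE by sampling day, with lines through the means of the 2 replicates. For genes without introns the ME libraries are below CE on day 0 (4.54 and 4.34 against 4.76 and 4.82) and above it on day 5 (5.40 and 5.32 against 4.89 and 4.95). For genes with introns ME is above CE on each day.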

How the data were processed

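Day 5 ME and CE libraries of total RNA (2 each) were compared, with SNE, INPUT and days 0 and 3 in the same fit. The deposited table holds TPM computed by the authors, a unit read from the values. The genome was hg38, and Salmon 1.3.0, featureCounts 1.6.2, HISAT2 2.0.5 and GATK are named per the submitters' processing notes, with no role given. Gene models, lengths and coding sequences came from GENCODE 29, and hydropathy was computed by translating them. After MT- removal, limma 3.58.1 in R 4.3.3 fitted log2(TPM + 1) of 24 libraries in 12 groups (12 residual degrees of freedom, trended robust prior). Differences are understated for genes near or under 1 TPM. An exact permutation of 2 against 2 libraries cannot go below p = 0.333. Libraries were assigned by title. Replicate numbers were not used to pair samples in the main fit, since the labels do not state a pairing. Depth was estimated from the steps of low values. Columns of other series numbered 0.

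The members and the 32 gene lists were chosen with earlier results of these data known, so list counts are descriptions without a test. Named genes were the 10 of largest difference in each direction at 10 TPM or more, up to 4 called members in each direction and 3 most abundant members of each list, fixed marker genes, and the 5 largest changes between days in each direction. Others are marked as chosen after values were seen. Alternatives were other pseudocounts (0.1 and 5), filters (none, 10 TPM), totals, normalisations, library sets, the replicate block and leaving out each library, and a filter on 10 estimated reads added after seeing the data.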

Additional observations from a re-analysis of the deposited data

Results flagged for a closer look

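For these genes the difference between ME and CE on day 5 was not that of another day by a test of the change itself (limma, adjusted p under 0.05 and at least 1 on the log2 scale). All values are day 5 minus the earlier day. Against day 0 the difference went up for FOSB (2.79), LTBP2 (2.10), EIF4G1 (1.39), MEIS1 (1.32), MCL1 (1.28), MEIS2 (1.21), NORAD (1.12), TUBA1B (1.12), TBX3 (1.00) and PCDH1 (1.00). It went down for RGS4 (-2.50), MSGN1 (-2.06), MIXL1 (-1.40), MTCO1P12 (-1.31), FGF17 (-1.31), CER1 (-1.3) and ZNF480 (-1.21). Against day 3 it went up for FOSB (2.15) and down for RGS4 (-2.58) and APOA1 (-1.59). MEIS1 and MEIS2 were under 1 TPM in all day 0 ME and CE libraries, and MSGN1 was listed at 0 there. CER1 was at only 3.61 and 4.64 TPM in the CE libraries and 7.32 and 5.13 TPM in the ME libraries on day 0. RGS4 rested on an ME level of 0.754 and 3.12 TPM on day 5. APOA1 rested on an estimated 1.9 reads in each day 5 ME library, and on 1.73 to 2.65 TPM in the day 3 ME and CE libraries. The cause of these changes was not tested.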

How the results depend on the processing

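The counts depended on how libraries were scaled. Against 5011 genes higher in ME, 652 were called with MT- genes kept in the totals, 684 with a common median, 1239 after quantile normalisation, 2262 with a pseudocount of 5 and 2968 with a filter of 10 TPM. Against 600 lower, 2422 were called with MT- genes kept, 2417 with a common median, 1549 after quantile normalisation and 319 with 36 libraries in the fit. Leaving out 1 library gave 4409 to 5394 higher and 529 to 659 lower. The 387 changes down from day 0 became 111 with a filter of 10 TPM and 166 with 10 estimated reads. The 51 changes up from day 3 became 16 and 20 under these filters and 27 to 73 with 1 library left out: 73 without ME replicate 1, 28 without ME replicate 2, 30 without CE replicate 1 and 27 without CE replicate 2. The 21 changes down from day 3 became 10 with the filter of 10 TPM, 32 with a pseudocount of 5 and 9 to 48 with 1 library left out, 48 without ME replicate 1 and 9 without either CE library. The cause of these shifts was not tested.

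List medians reversed under scaling. With MT- genes kept they were -0.28 for chaperones, -0.80 translocon, -0.55 secreted factors, -0.47 sterol synthesis, -0.28 Golgi, -0.28 nuclear envelope, -0.75 tail-anchored, -0.000325 unfolded protein response, -0.52 cytoplasmic lncRNAs, -0.24 structured RNAs, -0.34 snoRNAs, -0.51 pluripotency, -0.34 other cell types and -0.77 mitotic genes. With the common median they were, in that order without the unfolded protein response, -0.12, -0.73, -0.39, -0.36, -0.19, -0.18, -0.69, -0.46, -0.19, -0.23, -0.40, -0.37 and -0.67. After quantile normalisation they were -0.047 for the translocon, -0.073 secreted factors, -0.47 tail-anchored, 0.071 cytoskeleton, -0.14 pluripotency, -0.17 other cell types and -0.14 mitotic genes. At a hydropathy threshold of 1.9 genes with 1 internal segment had a median of 0.79 against 0.74. Of the 130 named genes, none changed sign in an alternative where it was called in the main run or in that alternative. Genes without a call could change sign, such as CALR (0.18, and -0.60 under the common median). Among the named genes 37 calls were lost with MT- genes kept, 34 with the common median, 21 after quantile normalisation and 15 with 36 libraries.

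Replicate differences in ME and in CE correlated across genes at -0.0238, 0.0509 and -0.0220 on days 0, 3 and 5. No deviation shared by replicate number was seen, which cannot show that the samples were unpaired. With a replicate block 5008 genes were higher and 599 lower. Depth limits low genes: 1381 higher and 103 lower calls rest on under 10 estimated reads in at least 3 of the 4 libraries.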
